A study of Rattus norvegicus with 3 samples.

Results

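The genes described here encode growth factors of the FGF, EGF, PDGF, VEGF, IGF and HGF families, with some of their receptors and IGF binding proteins. They were picked by gene symbol from the probe-set annotation, and 61 of the 14217 genes with a probe set of their own met that rule. One of the 61, Fgfr1op2, is named after a fusion partner of an FGF receptor and is neither a growth factor nor a receptor, which leaves 60 genes of the growth factor families. The number of genes per family was 26 for FGF, 10 for EGF, 6 for PDGF, 5 for VEGF, 11 for IGF and 2 for HGF and its receptor Met.

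RNA was measured in 3 soft tissues of the upper first molar region of wild-type male Sprague-Dawley rats, all 9 weeks old at harvest, on 1 rat GeneChip array per tissue. PICT, the peri-implant connective tissue, came from left sockets that received a titanium alloy implant directly after tooth extraction at 5 weeks of age and was taken 4 weeks later. OMCT, the oral mucosa connective tissue, came from extraction sites left to heal for 4 weeks with no implant, and PCT, the periodontal connective tissue, came from around a natural molar, with no extraction or implant described. All tissue was lifted from sections by laser microdissection; how many animals each array stands for is not stated in these sources, and the series text once writes mice for PCT where the sample labels give rat.

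Most of these factors are secreted proteins that bind receptor tyrosine kinases on the cell surface, which pair up and switch on the Ras-ERK and PI3K-Akt pathways. EGF family ligands are made as membrane-bound precursors that are cut free, and in oral mucosa they drive growth and migration of epithelial cells. FGF ligands of connective tissue such as Fgf7 act on the epithelial form of Fgfr2, PDGFs act on fibroblasts and pericytes, VEGFs on blood and lymphatic vessels, and IGFs on most cell types after release from their binding proteins. Sprouty proteins and dual-specificity phosphatases are made in response to receptor signalling and dampen it.

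With 1 array per tissue there was no spread between replicates, no test between tissues could be made, and the precision is limited by the number of arrays. Each gene was read from its brightest probe set (a group of short probes for 1 transcript). Levels are given as deposited intensities, on a linear scale. Differences are relative log2 differences, log2(intensity + 8.56) with the median of the array subtracted, so that a value of 1 is 2-fold. The words higher and lower are kept for genes called by a rule of size: this difference was at least 1 either way and the brighter array lay at or above its own median probe set.

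On the log2 scale the median of the PICT array lay 0.60 above that of PCT and the OMCT median 0.62 above it, and PICT lay 0.02 below OMCT. A gene with equal deposited intensities in PICT and PCT thus has a relative difference of -0.60. The 3' to 5' signal ratio of the Hk1 control, which grows as RNA is shortened, was 2.80 in PCT, 1.58 in PICT and 1.97 in OMCT, and its part in the differences from PCT was not tested. Among all genes read by several probe sets at or above a median, differences read from separate probe sets of the same gene had an SD of 0.44 for PICT minus PCT and 0.41 in each other comparison. The fibroblast markers Col1a1 (5552, 6651 and 8189 in PICT, PCT and OMCT) and Vim (3649, 2541 and 6205) were bright on all arrays, and so was the epithelial keratin Krt14 (7491, 8911 and 6894). Epithelial RNA was thus present on all arrays beside that of connective tissue.

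Of the 61 genes, 37 lay at or above the median probe set on at least 1 array, against 9854 of all 14217 genes, and 24 lay below it on all arrays. In the comparison of PICT with PCT, 2 of the 61 (3.28%) were higher in PICT, where 3.98% of all genes were. In the other direction 7 of the 61 (11.5%) were lower, where 3.37% of all genes were. Between PICT and OMCT 6 (9.84%) were higher in PICT, against 4.15% of all genes, and 9 (14.8%) were lower, against 4.46%. Between OMCT and PCT 5 (8.20%) were higher in OMCT, against 5.66%, and 9 (14.8%) were lower, against 4.81%. The median difference of the 61 genes was -0.48, -0.17 and -0.37 in these 3 comparisons, beside -0.13, -0.04 and -0.08 over all genes. The 3 comparisons share arrays, so only 2 of the differences of a gene are independent.

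The counts against PCT depend on how the arrays are scaled. As deposited, the PICT minus PCT counts were 3 higher and 2 lower (14.1% and 0.900% of all genes); the 3 were Areg, Ereg and Pdgfra. For OMCT minus PCT they were 10 higher and 1 lower (17.6% and 2.10%), the 10 being Areg, Fgf9, Fgfr1, Igfbp4, Pdgfa, Pdgfra, Pdgfrb, Pdgfrl, Vegfb and Vegfc and the 1 being Fgfr3. Between PICT and OMCT, whose medians lay close together, the counts as deposited were 6 higher and 10 lower (3.98% and 4.64%). The medians over the 61 genes also turned sign against PCT, to 0.13 for PICT minus PCT and 0.25 for OMCT minus PCT as deposited, beside 0.47 and 0.54 over all genes. The relative values of the 24 dim genes are drawn by the pseudocount towards -0.60 for PICT minus PCT and -0.62 for OMCT minus PCT.

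**Figure D1:**
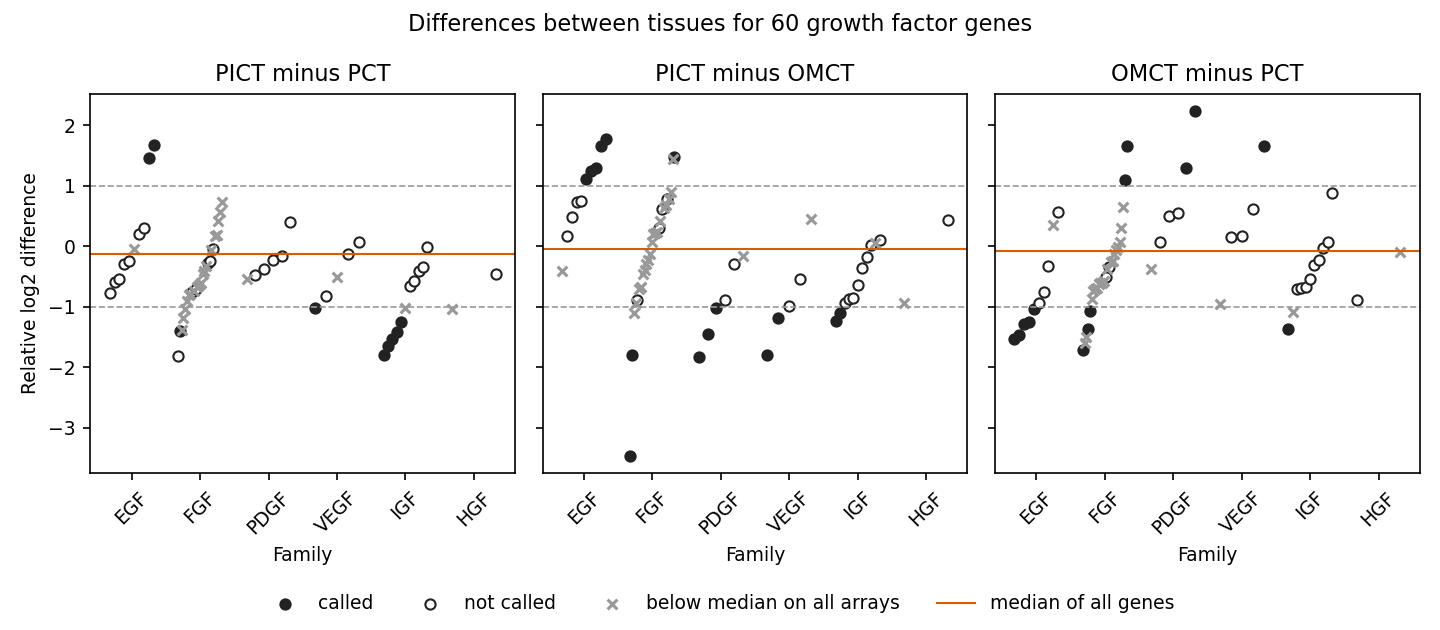
Relative log2 differences (vertical axis) of 60 growth factor genes by family (horizontal axis) in the 3 comparisons. Filled points were called, open points were not, crosses lay below the median on all arrays, dashed lines mark a difference of 1 in either direction and the orange line is the median of all genes. In PICT minus OMCT the 5 called EGF family genes are all above the upper line, and the called PDGF, VEGF and IGF family genes are all below the lower line.

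In total 25 of the 61 genes were called in at least 1 comparison and 36 in none. Only Areg and Ereg were higher in PICT than in both other tissues, and only Flt1 and Igf2 were lower in PICT than in both. Fgf9, Fgfr1, Pdgfra, Pdgfrb and Vegfb were higher in OMCT than in both, and Fgfr3, Hbegf and Nrg1 were lower in OMCT than in both. Igfbp3 was the 1 gene called higher in PCT than in both.

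Every ligand called higher in PICT, against PCT or OMCT, belonged to the EGF family. Areg (amphiregulin, a ligand of the EGF receptor that epithelial and immune cells release in injured tissue) read 210.1 for PICT, 36.6 for PCT and 94.4 for OMCT on the intensity scale. Its relative difference was 1.67 for PICT minus PCT and 1.11 for PICT minus OMCT, so PICT was the highest of the 3 arrays. Ereg (epiregulin, a ligand of Egfr and Erbb4) stood at 94.7 in PICT, 16.2 in PCT and 21.9 in OMCT, and the same differences were 1.46 and 1.78. PCT and OMCT were both low for Ereg and differed by -0.32 (OMCT minus PCT).

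Btc (betacellulin) had 74.5 in PICT, 35.5 in PCT and 27.1 in OMCT, and was higher in PICT than in OMCT by 1.24 but not past the rule against PCT (0.31). Hbegf (heparin-binding EGF, a ligand made at wound edges) had 69.6 in PICT, 36.4 in PCT and 16.6 in OMCT. It was 1.65 higher in PICT than in OMCT and 0.20 above PCT, so the low array was OMCT. Tgfa, another ligand of Egfr, lay between 113 and 126 on all arrays, and its differences did not reach 1 (-0.59 for PICT minus PCT, 0.16 for PICT minus OMCT). Egf itself was dim everywhere, at 8.58 in PICT, 3.12 in PCT and 14.5 in OMCT, and in PCT it lay below the highest negative control (5.71).

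Nrg1 (neuregulin 1, which signals through Erbb3 and Erbb4 and is made as many isoforms) had 152 in PICT, 116 in PCT and 57.9 in OMCT by its brightest probe set. That probe set was 1.29 higher in PICT than in OMCT and read -1.53 for OMCT minus PCT. Its other probe sets did not share this: of the 4 others that reached a median, 2 were above and 2 below 0 for PICT minus OMCT, and all 8 ranged from -0.90 to 2.08. The Nrg1 call thus depends on which probe set is read.

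Of the 7 EGF family ligands, 5 were higher in PICT than in OMCT and 0 lower, where 4.15% and 4.46% of all genes were. The 5 include Nrg1, whose call depends on the probe set. The median of the 7 was 1.24 beside -0.04 over all genes. Against PCT 2 of 7 were higher and 0 lower, where 3.98% and 3.37% of all genes were. Their median was 0.20 beside -0.13.

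Of the receptors of these ligands, Egfr, Erbb2 and Erbb3 had their lowest intensity in OMCT, as Btc, Hbegf and Nrg1 did. Erbb4, which is not among the 61 genes, had 3.82 in PICT, 1.31 in PCT and 5.90 in OMCT. It was above the negative controls in OMCT only. Egfr, the receptor of Areg, Tgfa and Egf, had 804 in PICT, 768 in PCT and 480.4 in OMCT. Erbb2, which has no ligand of its own and pairs with the other receptors, had 80.7, 63.5 and 45.7 in the same order. Erbb3, a neuregulin receptor, had 87.0, 98.8 and 60.6. All 3 receptors were lower in OMCT than in PCT, by -1.29, -1.03 and -1.26, and none was called between PICT and PCT (-0.54, -0.29 and -0.77) or between PICT and OMCT, where all 3 lay above 0 (0.75, 0.74 and 0.49; median over all genes -0.04). A second bright Egfr probe set gave 1.28 for PICT minus OMCT and 0.38 for PICT minus PCT, the opposite sign to the chosen one. It gave -0.90 for OMCT minus PCT, which did not reach the rule. As deposited, the OMCT minus PCT differences of the 3 receptors were -0.67, -0.41 and -0.63 and none was called.

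As a sum, markers of the upper epithelial layers were lowest in OMCT, as the 3 EGF family receptors, Btc, Hbegf and Nrg1 were. Areg and Ereg instead had their lowest intensity in PCT. Of 14 measured genes of differentiated oral epithelium, 13 were higher in PICT than in OMCT and 13 were lower in OMCT than in PCT. Their summed intensity came to 33958 for PICT, 29376 for PCT and 4421 for OMCT; none was at 0, and Ivl in PICT was the 1 value not above the negative controls. Over 13 keratinocyte genes the sum came to 45876 for PICT, 46914 for PCT and 33492 for OMCT. Neutrophil markers were also highest in PICT, with a sum over 5 genes of 4730.3 against 676 in PCT and 1029.9 in OMCT. Macrophage markers, summed over 13 genes, stood at 11662 in PICT, 1240.2 in PCT and 13315 in OMCT. The part of any of these markers in the EGF family differences was not tested, and in bulk tissue fewer cells of a type and less RNA per cell cannot be told apart. For PICT minus PCT, 9 of the 13 macrophage genes and 3 of the 5 neutrophil genes were higher and 0 lower. In the same comparison 0 of the 14 genes of differentiated epithelium were called, 3 of the 13 keratinocyte genes were lower and 0 higher, and 2 of 3 junctional epithelium genes were lower. The 2 were Krt19 (20.3 in PICT, 603 in PCT and 82.6 in OMCT; -5.01) and Krt7 (226, 549.6 and 6.25; -1.85), both also lower as deposited; Krt8 was not called.

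**Figure D2:**
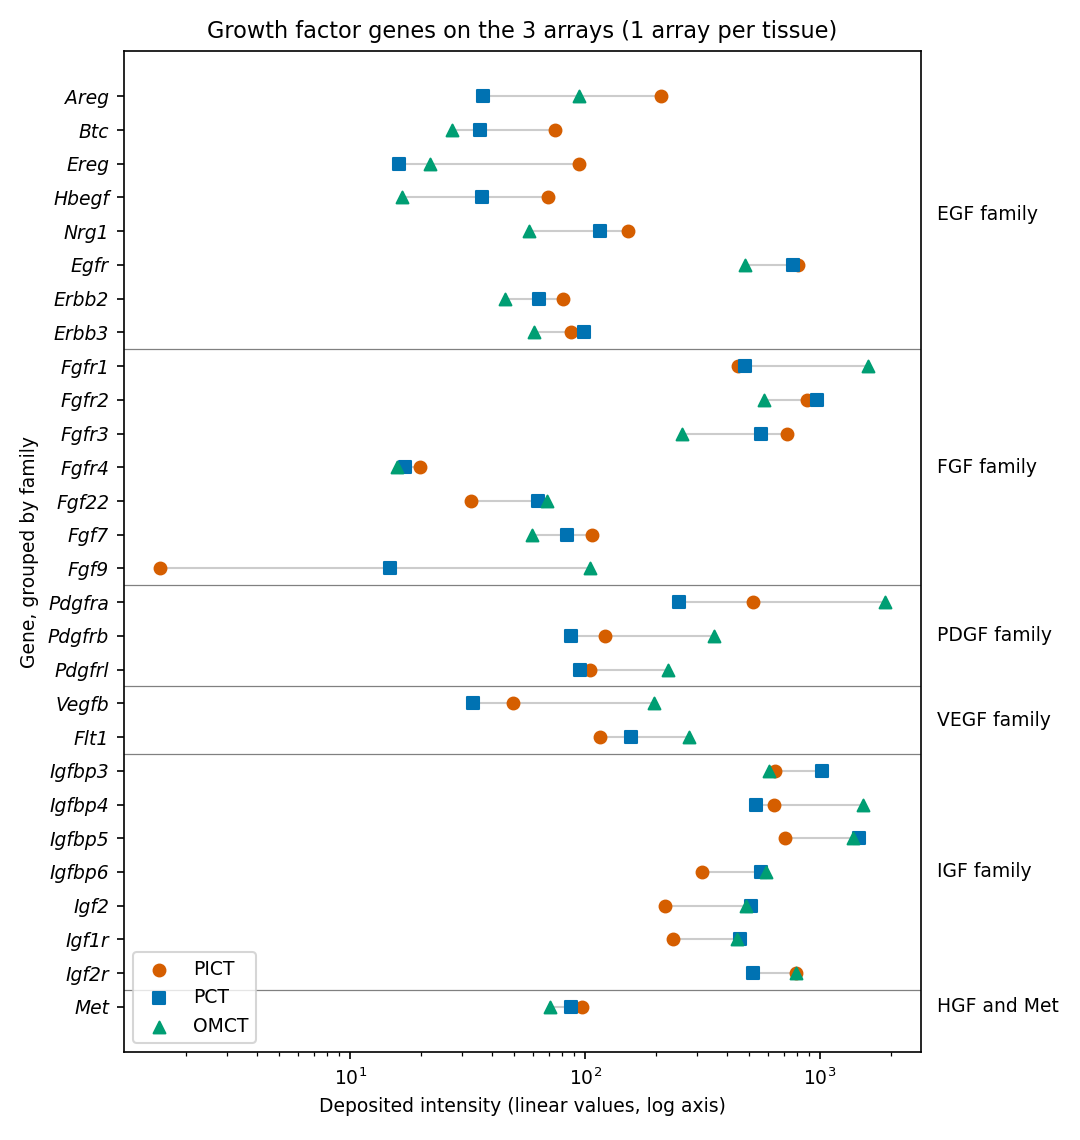
Deposited intensity (horizontal log axis) of the 28 growth factor genes that were called in a comparison or are receptors, grouped by family, with 1 point per array (orange circle PICT, blue square PCT, green triangle OMCT). PICT is the rightmost point for Areg, Btc, Ereg, Hbegf and Nrg1, while OMCT is the rightmost for Fgfr1, Pdgfra, Pdgfrb, Pdgfrl and Vegfb.

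Areg, Ereg and Btc lie side by side in the rat genome: in RefSeq's gene table of assembly GRCr8, Btc, Areg, Ereg and Epgn follow each other among the protein-coding genes of chromosome 14. The bases before the RefSeq start of Areg and Btc are shown because these neighbours were both higher in PICT than in OMCT. The promoter table held 51 of the 61 genes, and Ereg was not among them. Each run holds the 250 bases before the start, written 5′ to 3′ on the gene's strand from RefSeq's GRCr8: chr14:17265642-17265891 on the minus strand for Areg and chr14:16992418-16992667 on the plus strand for Btc. Capitals mark matches on either strand to the cyclic AMP response element TGACGTCA, the TATA box TATAAA and the GC box GGGCGG. The AP-1 motif and CCAAT were also searched and had no match in either window.
Areg: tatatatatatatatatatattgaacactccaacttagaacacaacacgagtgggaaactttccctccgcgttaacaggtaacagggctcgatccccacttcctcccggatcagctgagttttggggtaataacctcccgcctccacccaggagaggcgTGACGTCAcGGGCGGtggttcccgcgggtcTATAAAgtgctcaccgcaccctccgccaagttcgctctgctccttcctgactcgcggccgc
Btc: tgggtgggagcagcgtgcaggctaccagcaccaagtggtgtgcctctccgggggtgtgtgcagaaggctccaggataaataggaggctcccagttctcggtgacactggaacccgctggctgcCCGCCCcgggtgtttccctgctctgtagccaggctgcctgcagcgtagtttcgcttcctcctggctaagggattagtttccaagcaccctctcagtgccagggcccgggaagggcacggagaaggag
The Areg window held 1 TGACGTCA match, which begins 91 bases before the start, 1 GC box, which begins 82 bases before it, and 1 TATA box, which begins 61 bases before it. The Btc window held 1 GC box, on the minus strand, and none of the other motifs. TGACGTCA was found in 1.59% of all 33469 promoter windows of this length and in 2 of the 51 windows of the genes described here. TATAAA was found in 12.9% of all windows and the GC box in 30.5%. A match describes letters only and does not show that a factor binds there.

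The FGF receptors split between OMCT and the other tissues. Fgfr1, the main FGF receptor of connective tissue cells, read 449 in PICT, 481 in PCT and 1602 in OMCT. OMCT was the high array, with a difference of -1.80 for PICT minus OMCT and 1.10 for OMCT minus PCT; the second Fgfr1 probe set gave -1.72 and 1.42. Fgfr3, which is found on epithelial and cartilage cells, ran the other way at 723 for PICT, 559 for PCT and 258 for OMCT, with 1.48 for PICT minus OMCT and -1.71 for OMCT minus PCT. Its second probe set gave 1.27 and -1.86.

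Fgfr2, whose epithelial form binds Fgf7 and Fgf10, had 879 in PICT, 975 in PCT and 579 in OMCT. It was lower in OMCT than in PCT by -1.37, and all 5 of its probe sets lay below 0 in that comparison, from -1.37 to -0.46. The probe set at -0.46 was brighter in OMCT as deposited, at 151 beside 134 in PCT. Between PICT and OMCT the brightest Fgfr2 probe set read 0.62, under the rule, and 1 of the 4 others lay below 0. Fgfr4 was dim, from 15.8 to 19.9, and was not called. None of the 4 FGF receptors was called between PICT and PCT, where they differed by -0.75 to -0.24.

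Among the 22 genes of the FGF ligand family, 18 lay below the median probe set on all arrays. Their intensities reached at most 50.6 for PICT, 28.6 for PCT and 39.7 for OMCT, so none of the 18 could be called by the rule. The 4 others were Fgf7, Fgf9, Fgf13 and Fgf22. Fgf7 (keratinocyte growth factor, made by fibroblasts) had 107 in PICT, 84.0 in PCT and 59.3 in OMCT, a difference of -1.07 for OMCT minus PCT and 0.79 for PICT minus OMCT. Fgf22, a close relative of Fgf7, had 32.7 in PICT, 62.8 in PCT and 68.9 in OMCT and was lower in PICT than in PCT by -1.39. PICT was the low array for Fgf22, although the difference from OMCT (-0.89) did not reach the rule.

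Fgf9, a ligand with roles in bone and vessel growth, had 105 in OMCT, 14.8 in PCT and 1.55 in PICT, below the highest negative control (8.36). It was higher in OMCT than in PCT by 1.66 and lower in PICT than in OMCT by -3.47, a size that is not exact because of the PICT value. Its second probe set was below the median on all arrays and gave -0.84 for PICT minus OMCT and -0.06 for OMCT minus PCT. Fgf13, which stays inside the cell and binds sodium channels and microtubules, ranged from 43.8 to 68.9 and was not called.

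The dim FGF genes included Fgf2 (basic FGF, stored in matrix), at 16.3 in PICT, 28.6 in PCT and 39.7 in OMCT, and Fgf1 (acidic FGF), at 50.6, 26.0 and 26.2. Fgf10, the connective tissue ligand of epithelial Fgfr2, was at 9.03, 3.57 and 8.47. Fgf18, a factor of bone and cartilage, was at 26.3 in PICT and at 5.28 and 4.43 in PCT and OMCT. The endocrine FGFs (Fgf19, Fgf21 and Fgf23) and Fgf3, Fgf4, Fgf5, Fgf6, Fgf8, Fgf11, Fgf12, Fgf14, Fgf16, Fgf17 and Fgf20 were dim as well. Over the 61 genes, 9 values in PICT, 11 in PCT and 5 in OMCT lay at or below the highest negative control there.

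Of 20 measured FGF co-receptors, carriers and feedback genes, 0 were higher and 4 lower for PICT minus PCT, and 1 was higher and 4 lower for PICT minus OMCT. As deposited, 3 of the 20 were higher and 0 lower for PICT minus PCT, where 14.1% and 0.900% of all genes were. The feedback inhibitors Spry1 and Spry4 were lower in PICT than in both other tissues. Spry1 had 84.9 in PICT, 127 in PCT and 293 in OMCT (-1.13 against PCT and -1.67 against OMCT), and Spry4 had 131, 182 and 347 (-1.05 and -1.33). The transcription factors Etv1 and Etv5, which respond to FGF signalling, read -1.68 and -1.27 for PICT minus OMCT and 1.19 and 1.12 for OMCT minus PCT, all called.

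The phosphatases of the same list did not share 1 direction. Dusp4, which acts on ERK in the nucleus, was lower in PICT than in PCT by -1.20. Dusp5, another nuclear ERK phosphatase, had 179.9 in PICT, 95.8 in PCT and 46.6 in OMCT and was higher in PICT than in OMCT by 1.79. Dusp6, the phosphatase of ERK in the cytoplasm, was not called (854, 380.5 and 922; 0.55 against PCT and -0.09 against OMCT). Fgfbp1, an epithelial carrier that releases FGFs from matrix, was highest in PCT (1072 in PICT, 1428 in PCT and 855 in OMCT) and lower than in PCT in both PICT (-1.01) and OMCT (-1.36).

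The PDGF receptors were higher in OMCT than in the other tissues. Pdgfra, the PDGF receptor of fibroblasts, had 517 for PICT, 252 for PCT and 1888 for OMCT, with -1.83 for PICT minus OMCT and 2.24 for OMCT minus PCT. PICT lay between the others and exceeded PCT by 0.41, or 1.01 as deposited. Pdgfrb, the receptor of pericytes and fibroblasts, had 122 for PICT, 87.1 for PCT and 354 for OMCT, with -1.45 and 1.30. Of its 2 other probe sets, 1 gave -0.71 and 1.06, while the other gave 0.32 and 0.23 and so had the opposite sign for PICT minus OMCT. Pdgfrl, a secreted protein that resembles the receptors, had 105, 95.3 and 226 and was lower in PICT than in OMCT by -1.03.

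None of the PDGF ligands was called, although Pdgfa reached 1.13 for OMCT minus PCT as deposited. Pdgfa, which binds Pdgfra, had 397 in PICT, 339 in PCT and 752 in OMCT (-0.89 for PICT minus OMCT, 0.51 for OMCT minus PCT). Pdgfc, also a Pdgfra ligand, had 112, 84.0 and 142, and Pdgfd, a Pdgfrb ligand, was dim at 18.7, 17.6 and 22.5. The 6 PDGF family genes had a median of -0.96 for PICT minus OMCT, with 3 lower and 0 higher. For OMCT minus PCT their median was 0.53, with 2 higher and 0 lower. Over all genes 4.46% were lower and 4.15% higher for PICT minus OMCT. For OMCT minus PCT 5.66% of all genes were higher and 4.81% lower.

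Plat and Plaur, from a list of proteases that include the activators of Pdgfc and Pdgfd, were higher at both extraction sites than in PCT. Plat (tissue plasminogen activator) had 1069.9 in PICT, 287 in PCT and 1299.8 in OMCT, and Plaur (the urokinase receptor) had 224, 44.0 and 238. They were higher in PICT than in PCT by 1.26 and 1.54 and higher in OMCT than in PCT by 1.52 and 1.61. Between PICT and OMCT Plat and Plaur differed by -0.26 and -0.06, and Plau (urokinase), the third gene of that list, was not called; as deposited all 3 were higher in PICT than in PCT. The macrophage sum given with the EGF ligands had the same order of arrays as Plat and Plaur. So did the fibroblast and lymphatic sums given below, and the part of any of these markers was not tested.

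As a sum, fibroblast markers were brightest in OMCT, as the PDGF receptors and Fgfr1 were. Over 15 genes their summed intensity came to 36266 for PICT, 26930 for PCT and 59377 for OMCT. Of the 15, 0 were higher and 4 lower for PICT minus OMCT (median -0.57), and 8 were higher and 0 lower in OMCT than in PCT (median 1.03). For PICT minus PCT 2 were higher and 2 lower (median -0.01), where Fgfr1 read -0.70. None was at 0, and Mfap5 in OMCT was the 1 value not above the negative controls. For the 10 smooth muscle and pericyte genes the sum came to 2969.9 for PICT, 3557 for PCT and 4959.6 for OMCT. The part of these markers in the receptor differences was not tested.

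Among the VEGF family genes picked, Vegfb, Flt1, Pgf and Vegfc all had their highest intensity in OMCT. Vegfa and the VEGF receptor Kdr lie outside the rule and the further lists and were not read here. These values thus do not describe the whole VEGF family. Vegfb, a ligand of Flt1 with roles in heart and fat tissue, had 49.5 for PICT, 33.4 for PCT and 196 for OMCT, with -1.79 for PICT minus OMCT and 1.66 for OMCT minus PCT. Flt1 (VEGF receptor 1) had 115 in PICT, 157 in PCT and 277 in OMCT. It was lower in PICT than in PCT by -1.03, just past the rule, and lower in PICT than in OMCT by -1.19. All 3 Flt1 probe sets lay below 0 in both comparisons, from -1.03 to -0.59 against PCT and from -1.68 to -0.89 against OMCT. As deposited, the difference from PCT was -0.42 and was not called. The 2 other Flt1 probe sets had 75.2 and 58.3 in PICT, beside 81.0 and 57.8 in PCT.

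Pgf (placental growth factor, a ligand of Flt1) had 54.4 in PICT, 64.7 in PCT and 118 in OMCT and reached -0.99 for PICT minus OMCT, just short of the rule, and -1.01 as deposited, where it was called. Vegfc, the main growth factor of lymphatic vessels, had 134 in PICT, 80.6 in PCT and 203 in OMCT and was not called (0.08, -0.55 and 0.62 in the 3 comparisons). Vegfd, the other lymphatic ligand, was dim at 19.4, 17.7 and 12.2.

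Of 8 further VEGF and angiopoietin genes, 0 were higher and 3 lower for PICT minus OMCT, 3 were higher and 0 lower in OMCT than in PCT, and 0 were called between PICT and PCT (1 higher and 0 lower as deposited). Flt4, the receptor of Vegfc, had 47.7 in PICT, 44.4 in PCT and 262 in OMCT (-2.25 for PICT minus OMCT). Angpt2, an angiopoietin of remodelling vessels, had 50.8, 38.3 and 140.5 (-1.31), and Nrp1, a co-receptor of VEGFs and semaphorins, had 338, 377 and 726 (-1.06). Nrp2, the co-receptor of lymphatic vessels, was higher in OMCT than in PCT by 1.35. The summed intensity of 11 endothelial markers came to 2417 for PICT, 3172 for PCT and 5620.3 for OMCT, with 6 of them lower in PICT than in PCT and 6 lower in PICT than in OMCT. For 5 lymphatic markers, Flt4 among them, the sum came to 1275 for PICT, 732 for PCT and 3295 for OMCT. The part of vessel markers in these values was not tested.

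The IGF family held most of the genes lower in PICT than in PCT: 5 of its 11 genes were lower and 0 higher. Over all genes 3.37% were lower and 3.98% higher. The family median was -1.03 beside -0.13 over all genes. Igf2, the growth factor of fetal and mesenchymal tissue, had 218 in PICT, 509 in PCT and 486 in OMCT. PICT was the low array, by -1.79 against PCT and -1.11 against OMCT. The 3 other Igf2 probe sets lay below the median on all arrays. Igf1r, the receptor through which both IGFs signal, had 236 in PICT, 457 in PCT and 443 in OMCT, a difference of -1.53 from PCT and -0.86 from OMCT. Its second probe set gave -0.67 and -1.21, so both lay below 0 and the comparison that reached the rule differed between them.

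Igf1, the IGF that mediates growth hormone effects and is also made by fibroblasts and macrophages, had 292 in PICT, 285 in PCT and 468 in OMCT and was not called (-0.57 against PCT and -0.64 against OMCT). Its 2 other probe sets, both at or above a median, gave -1.60 and -1.58 for PICT minus OMCT. Igf2r, which clears Igf2 and sorts lysosomal enzymes, had 788 in PICT, 521 in PCT and 789 in OMCT. Igf2r read -0.01 for PICT minus PCT and 0.02 for PICT minus OMCT, nearer to 0 than the other IGF receptor and ligands; its second probe set gave 0.67 and 0.19.

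The IGF binding proteins hold IGFs in the matrix and fluid and some act on cells directly. Igfbp5, which binds to bone and matrix, had 709.7 in PICT, 1468 in PCT and 1381 in OMCT, a difference of -1.64 from PCT and -0.93 from OMCT. All 5 Igfbp5 probe sets lay below 0 for PICT minus PCT, from -1.87 to -0.48, and 3 of them passed -1. The probe set at -0.48 was brighter in PICT as deposited, at 1168 beside 1075 in PCT. For PICT minus OMCT the 5 probe sets ranged from -1.17 to 0.23, and 1 of the 4 others lay above 0. Igfbp6, which prefers Igf2, had 314, 559 and 591, with -1.42 from PCT and -0.88 from OMCT, and its second probe set gave -1.60 and -1.09. Igfbp3, the main carrier in serum, had 644 in PICT, 1019 in PCT and 604 in OMCT and was lower in both PICT (-1.26) and OMCT (-1.37) than in PCT.

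Igfbp4, a binding protein that inhibits IGF action until it is cut, had 636 in PICT, 532 in PCT and 1529.9 in OMCT and was lower in PICT than in OMCT by -1.23. Igfbp2 had 1524, 1330.1 and 1751 and Igfbp7, a matrix and vessel protein that binds IGFs weakly, had 3708, 3866 and 4809; neither was called. Igfbp1 was not above the negative controls on any array (1.43, 4.86 and 1.14). Of the 7 binding proteins, 3 were lower in PICT than in PCT, 1 was lower in PICT than in OMCT and 0 were higher in either. As deposited, the IGF family counted 2 lower genes and 0 higher in PICT than in PCT, Igf2 at -1.19 and Igfbp5 at -1.04. Igf1r, Igfbp6 and Igfbp3 then stood at -0.93, -0.82 and -0.66. Other tissue markers were low in PICT as well: 4 of 6 nerve and Schwann cell genes were lower in PICT than in PCT (sums 473 in PICT, 929.5 in PCT and 732 in OMCT), as were 3 of 5 bone and cementum genes (682, 925 and 1511) and the 6 endothelial genes given above. As deposited these counts were 3, 1 and 2. The part of these markers in the IGF family differences was not tested.

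**Figure D3:**
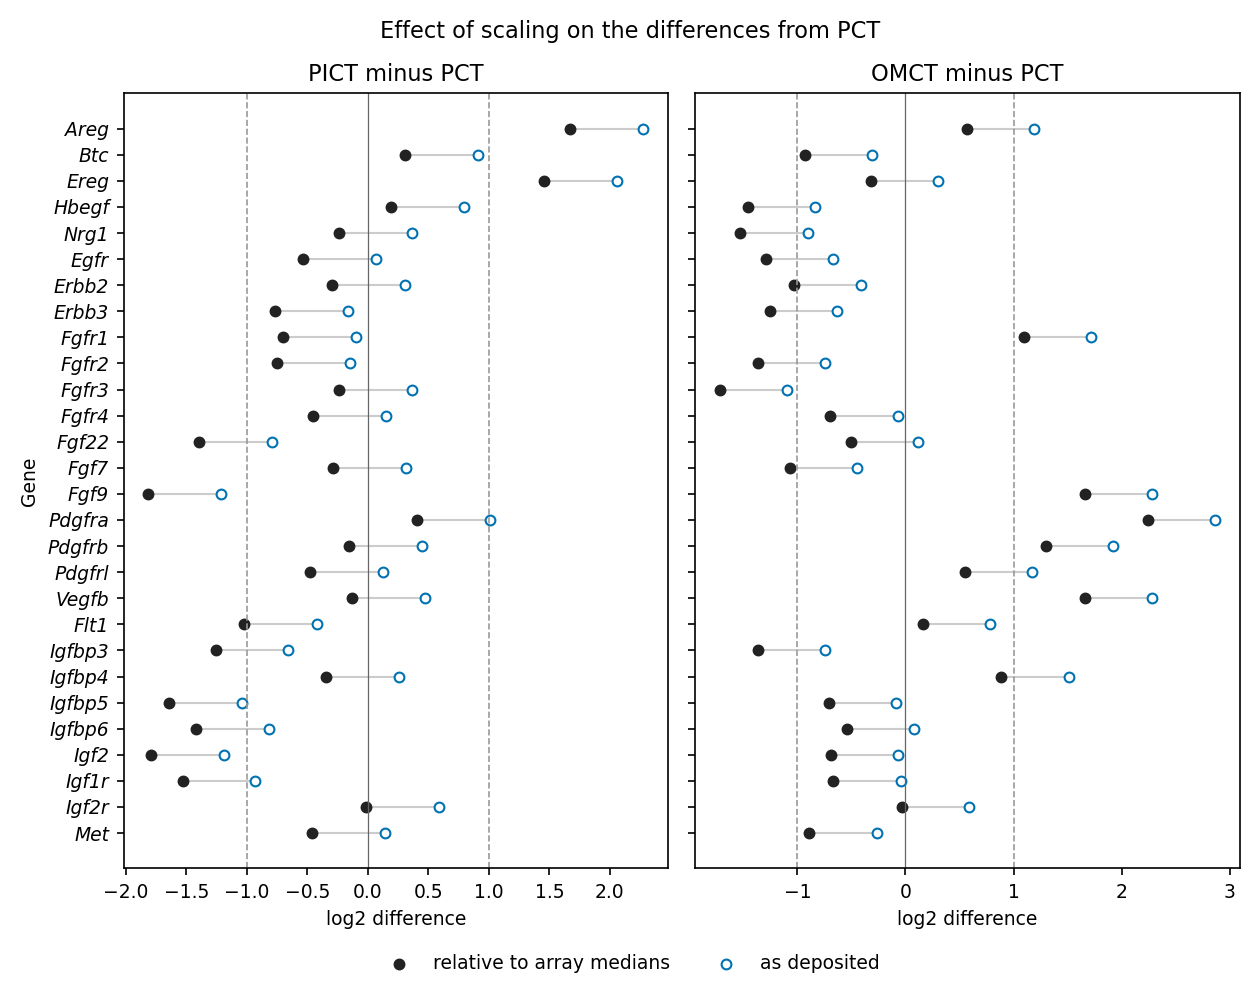
The log2 difference (horizontal axis) of 28 growth factor genes from PCT, for PICT on the left and OMCT on the right, relative to the array medians (filled) and as deposited (open). Scaling shifts every gene by 0.60 on the left and 0.62 on the right, which leaves Igf2 and Igfbp5 as the 2 genes called lower in PICT as deposited.

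Of 11 measured IGF carriers, proteases and adaptors, 0 were called between PICT and PCT, while 0 were higher and 3 lower for PICT minus OMCT. Stc1, an inhibitor of the protease that frees IGF from Igfbp4, had 68.8 in PICT, 64.8 in PCT and 1227 in OMCT (-3.98 for PICT minus OMCT). Htra1, a protease that cuts binding proteins and matrix, had 1442, 795 and 4163 (-1.50), and Irs2, an adaptor of the insulin and IGF receptors, had 228, 172 and 478 (-1.02). For OMCT minus PCT, Stc1 and Htra1 read 3.45 and 1.75.

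Hgf, the fibroblast-made scatter factor of epithelium, was below the median on all arrays at 17.0 for PICT, 25.9 for PCT and 41.3 for OMCT. Its receptor Met had 96.6, 86.8 and 70.7 and was not called in any comparison (-0.46, 0.43 and -0.89 in the order PICT minus PCT, PICT minus OMCT and OMCT minus PCT). Of 6 genes around the activation of Hgf, the protease inhibitors Spint1 and Spint2 were lower in PICT than in PCT (-1.02 and -1.07) and in OMCT than in PCT (-1.33 and -1.74). As deposited, 0 of the 6 were called for PICT minus PCT and 1 was lower for OMCT minus PCT. St14 (matriptase, an epithelial protease) was higher in PICT than in OMCT by 1.05. The keratinocyte sums given with the EGF family are deposited intensities, close in PICT and PCT and lowest in OMCT. On the relative scale the keratinocyte genes had a median of -0.69 for PICT minus PCT, with 3 lower and 0 higher. Their median was 0.81 for PICT minus OMCT and -1.14 for OMCT minus PCT. The part of epithelial content in Spint1, Spint2 and St14 was not tested.

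In the list of remaining EGF family ligands, sheddases and feedback genes, 0 of 15 were called between PICT and PCT, and 2 were higher and 0 lower for PICT minus OMCT. As deposited, 5 of the 15 were higher and 0 lower for PICT minus PCT. The 2 called for PICT minus OMCT were Nrg4 (85.4 in PICT, 34.3 in PCT and 32.3 in OMCT; 1.22), a further Erbb4 ligand, and Cblb (187, 60.7 and 85.8; 1.07), a ubiquitin ligase that limits receptor signalling. Errfi1, an inhibitor made in response to EGF receptor signalling, had 285 in PICT, 90.9 in PCT and 405 in OMCT and was higher in OMCT than in PCT by 1.43. The sheddase Adam17, which frees Areg and Hbegf, had 544, 327 and 462 and was not called. Over all 63 measured genes of the 6 lists, 2 were higher and 6 lower for PICT minus PCT, 4 were higher and 10 lower for PICT minus OMCT, and 10 higher and 5 lower in OMCT than in PCT. As deposited the balance against PCT turned, to 12 higher and 0 lower for PICT and 18 higher and 1 lower for OMCT, while the counts for PICT minus OMCT stayed at 4 and 10. The all-gene shares given for the growth factor genes are the background of these counts as well. For the relative counts they were 3.98% higher and 3.37% lower for PICT minus PCT and 4.15% and 4.46% for PICT minus OMCT. For OMCT minus PCT they were 5.66% and 4.81%. For the counts as deposited they were 14.1% higher and 0.900% lower for PICT minus PCT. Between PICT and OMCT the deposited shares were 3.98% and 4.64%, and for OMCT minus PCT they were 17.6% and 2.10%.

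Different probe sets of a gene gave a check of single readings, though not of the spread between animals. Of the 61 genes, 21 had more than 1 probe set. Among genes called for PICT minus PCT, all 9 other probe sets that reached a median had the sign of the chosen one. These are signs of relative differences, where equal intensities in PICT and PCT read -0.60. As deposited, an Igfbp5 probe set (1168 in PICT, 1075 in PCT) and a Flt1 probe set (58.3 and 57.8) were brighter in PICT. The rest of the 9 were dimmer in PICT than in PCT. For PICT minus OMCT 7 of 10 did, and the 3 that did not belonged to Nrg1 (2) and Pdgfrb (1). For OMCT minus PCT, where equal intensities read -0.62, 12 of 14 did, and both exceptions belonged to Nrg1. As deposited, an Fgfr2 probe set (151 in OMCT, 134 in PCT) and a further Nrg1 probe set (84.8 and 52.8) also had the opposite sign. Areg, Ereg, Btc, Hbegf, Erbb2, Erbb3, Fgf7, Fgf22, Pdgfra, Pdgfrl, Vegfb and Igfbp4 had 1 probe set each and so no such check.

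**Figure D4:**
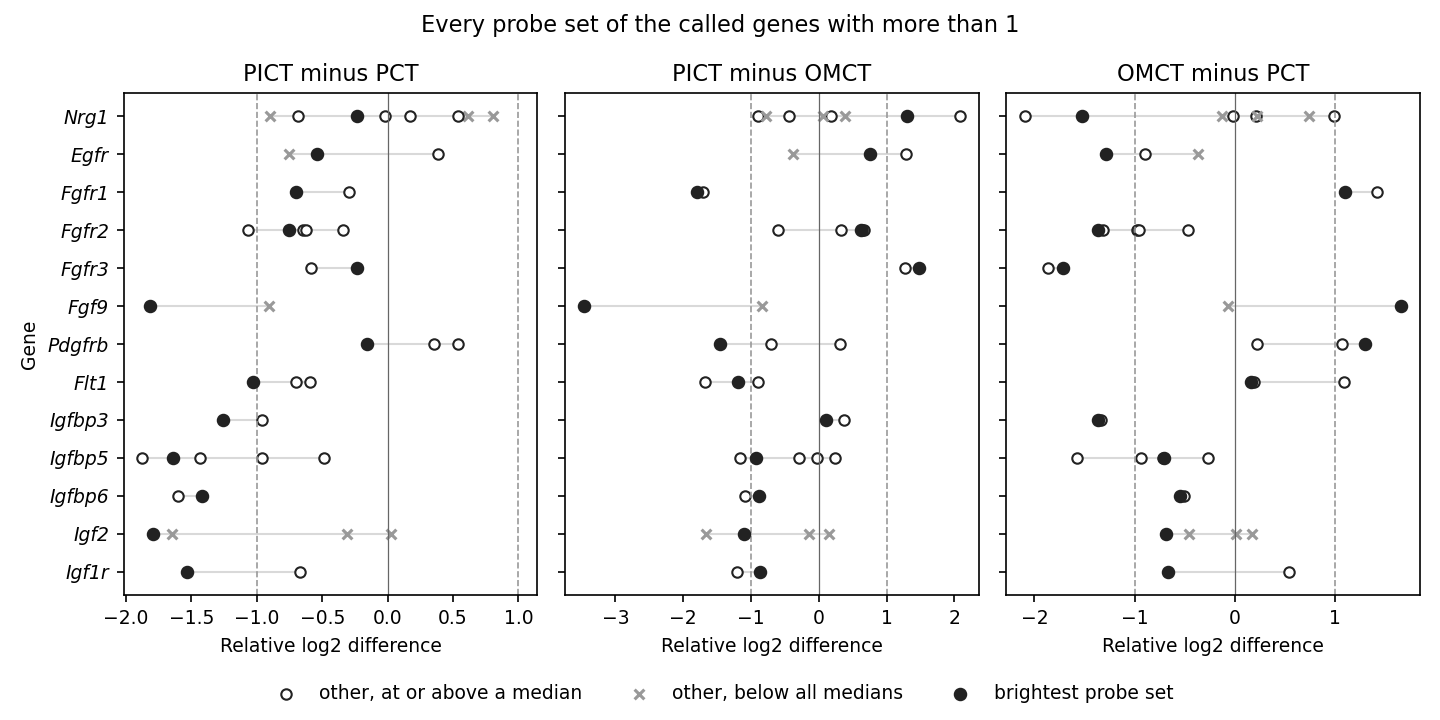
Relative log2 difference (horizontal axis) of every probe set of 13 called genes with more than 1, in the 3 comparisons. Filled points are the brightest probe sets, open points others that reached a median and crosses others that did not; probe sets of Fgfr1, Fgfr3, Igfbp3 and Igfbp6 lie close together, while those of Nrg1 spread from -0.90 to 2.08 for PICT minus OMCT.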

How the data were processed

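The members and gene lists were chosen with earlier results of these data known. Per the labels' protocols, total RNA from laser-microdissected tissue was amplified, biotin-labelled by in vitro transcription and measured on a rat GeneChip. The authors deposited 1 intensity per probe set and array on a linear scale, for 31099 probe sets. Probe summarisation, background correction and scaling are not given in the sources used here. Gene names came from the platform annotation of 2016; all 61 members matched RefSeq by gene ID with the same symbol. The 20826 probe sets with 1 symbol gave 14217 genes, each read from its brightest probe set by mean log2. The pseudocount of 8.56 is the 20th percentile of all values, and it understates differences of dim genes. Negative controls were the 3 TrpnX probe sets. Named genes were those called in any comparison and 13 receptors. The calling step was run on simulated data, with planted differences well past the cut of 1 and in bright genes only. That run does not show how differences near the cut, or those of dim genes, are called. Python 3.11.15, numpy 2.4.6 and pandas 2.3.3 were used. Alternatives covered scaling, pseudocount, dim-gene filter and choice of probe set. No figure for biological variation exists with 1 array per tissue.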

Additional observations from a re-analysis of the deposited data

How the results depend on the processing

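The 61 genes gave 38 called differences over the 3 comparisons, and 11 were called in the same direction under all 8 alternatives: Areg and Igfbp5 for PICT minus PCT, Fgfr1, Fgfr3, Igfbp4, Pdgfra and Vegfb for PICT minus OMCT, and Fgfr1, Fgfr3, Pdgfra and Vegfb for OMCT minus PCT. Quantile normalization and no filter on dim genes kept all 38, a pseudocount of 16 kept 34, leaving out probe sets ending in _s_at or _x_at kept 36, and the mean over all probe sets kept 28. As deposited 25 of the 38 remained. The counts that changed most were then 2 lower for PICT minus PCT and 10 higher and 1 lower for OMCT minus PCT. Of those 10, 5 were among the 38. The remaining counts as deposited were 3 higher for PICT minus PCT and 6 higher and 10 lower for PICT minus OMCT. With the pseudocount at the median of all values 20 remained, with 1 higher and 4 lower for PICT minus PCT, 2 higher for PICT minus OMCT and 3 lower for OMCT minus PCT. With the brighter array at or above its 75th percentile 26 remained, with 1 higher for PICT minus PCT, 2 higher for PICT minus OMCT and 5 lower for OMCT minus PCT. With no filter 13 were lower for PICT minus PCT, and with the mean over all probe sets 3 were higher for OMCT minus PCT. Pdgfrb reversed for PICT minus OMCT, to 0.32, where its _s_at probe sets were left out, because another probe set then stands for the gene. No paired analysis was possible because each tissue has 1 array. Signals near the negative controls limit most FGF ligands.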
